A study of Mus musculus with 6 samples.

Results

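The subject is a set of 37 mouse genes of glucose uptake, glycolysis and glycogen metabolism, named by symbol and found through the transcript accessions of the array's probes. All 37 were found, and all 37 were among the 14701 genes tested, with a probe well above background on every array. They were read in the hearts of 6 male C57BL6 mice aged 10 weeks. Every mouse was starved for 16 h and given lipopolysaccharide (LPS, the endotoxin of Gram-negative bacteria) at 20 mg/kg into the peritoneum, and hearts were taken at 30 h. At 3 and 24 h after LPS, 3 mice received recombinant human thrombomodulin (rhTM), the soluble form of an endothelial receptor that turns thrombin towards activation of protein C, and 3 mice received saline. No heart without LPS was analysed, so every value compares rhTM plus LPS with saline plus LPS, in fasted animals.

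Glucose enters cells through facilitative transporters, is phosphorylated by hexokinases and is broken down to pyruvate, which is reduced to lactate or oxidised in mitochondria. The fasted adult heart burns mainly fatty acids and keeps a glycogen store that it builds from glucose and degrades under stress. Many steps are run by isoenzymes from separate genes, of which some are typical of striated muscle and others of most tissues or of blood cells, and endotoxin is known to raise glycolysis in activated leukocytes.

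RNA was measured with 1-colour Agilent arrays, 1 per mouse. Each value is a log2 signal after subtraction of the 75th percentile on that array, changes are rhTM minus saline with the standard error (SE) of a limma fit over all genes, and a gene was called at a Benjamini-Hochberg adjusted p under 0.05. Nothing in the labels says more of the mice than that they were separate animals, and 3 arrays a group limit the precision of every value. Saline 1 and 2 lay on slide 1 and were scanned together, while saline 3 shared slide 2 and its scan with all rhTM arrays. Across genes, rhTM 3 correlated with saline 3 at 0.965, close to its 0.969 and 0.970 with rhTM 1 and 2, while saline 3 correlated with saline 1 and 2 at 0.942 and 0.939. Saline 3 lay outside the range of the other 5 arrays in 22 of the 37 genes (59.5%), against 46.5% of all genes tested. The difference between the rhTM mean and saline 3 is therefore given as the value within slide 2. It rests on 1 saline array and is the same number as the estimate of a fit blocked on slide. Because whole hearts were used, fewer cells of a type and less RNA per cell cannot be told apart.

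Of the 37 genes, 1 was called lower with rhTM and 0 were called higher (limma), against 2.41% of all genes tested called lower, 2.75% called higher and 5.17% called in either direction. The gene called lower was Gbe1, the glycogen branching enzyme. At an unadjusted p under 0.05, 9 lay lower and 1 higher, against 15.6% and 15.1% of all genes. The share called is near that of all genes and is no result about the set. The group mean was lower with rhTM in 25 genes and higher in 12, against 49.2% and 50.8% of all genes, and the median change was -0.22, against 0.01 over all genes tested. Within slide 2 the median was 0.03, and the sign of the change turned in 12 of the 37 genes, against 26.5% of all genes. In 10 genes (27.0%) the groups lay apart, against 35.7% of all genes. Of these, 9 lay lower and 1 higher with rhTM, against 18.7% and 17.0% of all genes.

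The counts depended on the slides. Blocking on slide gave 3 members called higher and 0 lower (limma), against 3.83% and 1.95% of all genes, and blocking on replicate number gave 0 in either direction, against 2.43% and 1.65%. Without saline 3 there were 1 higher and 9 lower, against 20.5% and 19.1% of all genes. The higher one was Pfkfb2, and the lower ones were Hk1, Pfkp, Pfkfb3, Aldoa, Pkm, Gys1, Gbe1, Pygb and Phka1. Without saline 3 and rhTM 3 there were 4 higher and 12 lower, against 26.9% and 26.3%. In the fits without saline 3, all saline arrays are on slide 1 and all rhTM arrays on slide 2, so that slide and treatment cannot be told apart.

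**Figure D1:**
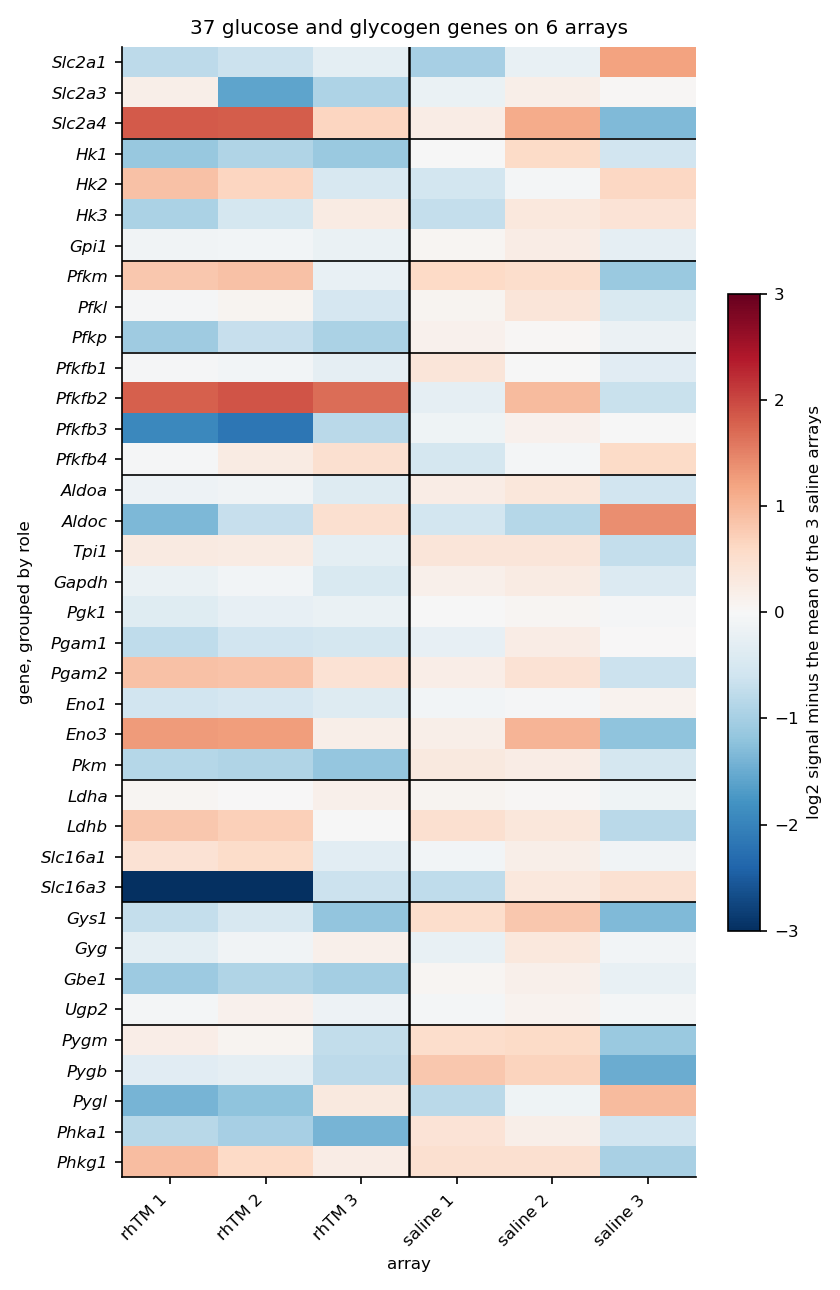
Log2 signal of the 37 genes (rows, grouped by role with black lines between groups) on the 6 arrays (columns), each gene relative to the mean of its 3 saline arrays; colours end at 3 in either direction. Saline 3 differs in colour from saline 1 and 2 in many rows, and Pfkfb2 is red on all rhTM arrays while Slc16a3 is dark blue on rhTM 1 and 2.

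**Figure D2:**
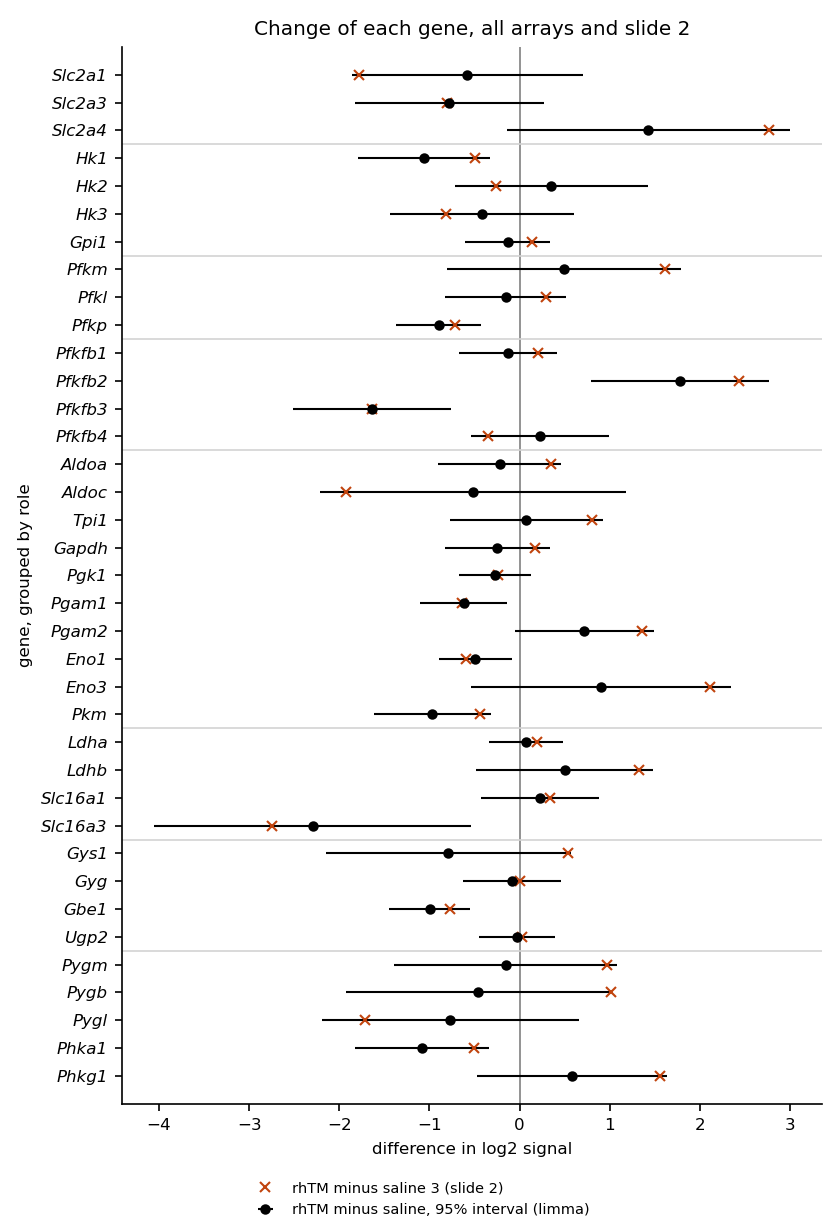
Difference in log2 signal between groups for each gene: black points, rhTM minus saline over all arrays with the 95% interval of the limma fit; orange crosses, rhTM mean minus saline 3 alone. Gbe1 lies at -0.998 with an interval below 0, and for Slc2a4, Eno3, Pfkm and Phkg1 the cross lies far to the right of the point.

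Gbe1 adds the branches that make glycogen compact and soluble. Its signal was 2.40, 2.60 and 2.48 in rhTM 1, 2 and 3, against 3.55, 3.65 and 3.27 in saline 1, 2 and 3. All rhTM arrays lay below all saline arrays, with a gap of 0.67. The change was -0.998 ± 0.188 (SE, n = 3 and 3, adjusted p = 0.0427), or 2.00-fold lower with rhTM, and a second Gbe1 probe differed by -1.04. Within slide 2 the difference was -0.77. With normexp background correction Gbe1 differed by -0.90 and was not called (limma, adjusted p = 0.0545). With no filter on dim probes it was not called either (adjusted p = 0.0961). The call was lost on blocking by slide (adjusted p = 0.0638), on blocking by replicate number (adjusted p = 0.0554) and without any array other than saline 3 (0.0602 to 0.205). The promoter of this gene is shown as that of the called member, in the RefSeq table of build GRCm38.p6, as the 250 bases before the start of transcription at chr16:70313699-70313948 on the plus strand. Capitals here and below mark ACGTG or GCGTG on either strand, the core letters to which hypoxia-inducible factors bind, and this window holds none.

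Gbe1: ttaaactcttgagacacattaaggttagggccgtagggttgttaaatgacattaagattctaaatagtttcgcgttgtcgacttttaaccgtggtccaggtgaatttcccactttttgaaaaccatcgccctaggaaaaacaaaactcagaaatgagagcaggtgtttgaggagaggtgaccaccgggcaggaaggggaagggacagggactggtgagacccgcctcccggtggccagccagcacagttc

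None of the other 3 genes of glycogen synthesis passed. Gys1, the muscle glycogen synthase that lengthens the chains, had 1.95, 2.20 and 1.498 in rhTM hearts, against 3.19, 3.48 and 1.35 in saline hearts. Saline 3 alone lay below all rhTM arrays, so the groups overlapped, and the change was -0.79 ± 0.57 (adjusted p = 0.367) and 0.54 within slide 2. Without saline 3, Gys1 passed at -1.45 (adjusted p = 0.0103). Gyg, the glycogenin that primes new particles, differed by -0.08 ± 0.23, with a 95% interval from -0.63 to 0.47. Ugp2, which makes the UDP-glucose used for synthesis, differed by -0.03 ± 0.18, with an interval from -0.45 to 0.40. All 4 genes of synthesis had a lower mean with rhTM, and 1 passed the test.

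Of the 5 genes of glycogen breakdown, 4 had a lower mean with rhTM and 0 were called (limma, 1 at an unadjusted p under 0.05, the share of all genes at that level being 15.6%). That gene was Phka1, a regulatory subunit of the phosphorylase kinase of muscle, which switches phosphorylase on. It had 1.82, 1.65 and 1.25 in rhTM hearts, against 3.06, 2.82 and 2.08 in saline hearts. The groups were apart by 0.26, the change was -1.08 ± 0.31 (adjusted p = 0.0849) and the value within slide 2 was -0.51. Phkg1, the catalytic subunit of the same kinase in muscle, had -0.21, -0.53 and -0.91 in rhTM hearts, against -0.65, -0.64 and -2.11 in saline hearts. Its arrays overlapped (0.58 ± 0.44, adjusted p = 0.387), but it passed at 1.56 on blocking by slide (adjusted p = 0.0473), where saline 3, the lowest array, stands alone for saline.

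Phosphorylases release glucose units from glycogen, and the 3 genes encode the muscle, brain and liver forms. Pygm, the muscle form, had 4.64, 4.55 and 3.72 in rhTM hearts, against 4.99, 5.03 and 3.34 in saline hearts. Pygb, the brain form that the heart also makes, had 3.23, 3.31 and 2.78 in rhTM hearts, against 4.38, 4.23 and 2.09 in saline hearts. In both, saline 1 and 2 lay above every rhTM array and saline 3 below, so that the changes of -0.15 ± 0.52 and -0.46 ± 0.61 became 0.97 and 1.02 within slide 2. Without saline 3, Pygb passed at -1.20 (adjusted p = 0.0104). Pygl, the liver form, which leukocytes also express, had -0.15, 0.03 and 1.52 in rhTM hearts, against 0.43, 1.10 and 2.18 in saline hearts. Its groups overlapped (-0.77 ± 0.60, adjusted p = 0.400, and -1.71 within slide 2), with mouse 3 the highest in both groups.

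The 3 glucose transporters differed in direction, and 0 were called (limma, 0 at an unadjusted p under 0.05). Slc2a4 encodes GLUT4, the transporter that insulin and contraction move to the surface of muscle cells. It had 6.34, 6.30 and 5.13 in rhTM hearts, against 4.71, 5.61 and 3.16 in saline hearts. Saline 2 lay above rhTM 3, so the groups overlapped, and the change was 1.43 ± 0.66 (2.70-fold, adjusted p = 0.192, 95% interval -0.14 to 3.00). Within slide 2 Slc2a4 was 2.77 higher with rhTM (adjusted p = 0.0595, blocking on slide). Slc2a1 encodes GLUT1, the transporter of basal uptake that most cells carry. It had 1.37, 1.49 and 1.85 in rhTM hearts, against 1.16, 1.93 and 3.34 in saline hearts. The high saline 3 array set its change of -0.58 ± 0.53 (adjusted p = 0.481), which was 0.02 without that array and -1.78 within slide 2. Slc2a3, the high-affinity GLUT3 of neurons and leukocytes, had -1.92, -3.68 and -3.0 in rhTM hearts, against -2.29, -1.91 and -2.06 in saline hearts. The rhTM 1 array lay among the saline arrays and the groups overlapped (-0.78 ± 0.44, adjusted p = 0.264), while its other probe exceeded background nowhere.

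Hexokinases trap glucose in the cell by phosphorylation. Hk1, the form found in most tissues, had 4.35, 4.59 and 4.38 in rhTM hearts, against 5.50, 6.07 and 4.93 in saline hearts. The groups were apart by 0.34 and the change of -1.06 ± 0.31 missed the threshold (2.08-fold lower, adjusted p = 0.0875), with -0.49 within slide 2. Hk2, the insulin-responsive form of muscle, had 3.48, 3.23 and 2.12 in rhTM hearts, against 2.05, 2.53 and 3.21 in saline hearts. The rhTM 1 and 2 arrays lay high and rhTM 3 low, and saline 3 was close to rhTM 2 (0.35 ± 0.45, adjusted p = 0.612). Hk3, a form of myeloid cells, differed by -0.41 ± 0.43 and its second probe by -0.59. Gpi1, which isomerises the product for the next step, ranged from 6.76 to 6.89 in rhTM hearts and from 6.70 to 7.19 in saline hearts, a change of -0.13 ± 0.20 with an interval from -0.60 to 0.34.

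Phosphofructokinase commits sugar to glycolysis and exists as muscle (Pfkm), liver (Pfkl) and platelet (Pfkp) forms. Pfkp had 2.10, 2.48 and 2.21 in rhTM hearts, against 3.30, 3.21 and 2.98 in saline hearts. All rhTM arrays lay below all saline arrays by at least 0.50. The change of -0.90 ± 0.20 just missed the threshold (1.86-fold lower, adjusted p = 0.0524), its second probe differed by -0.92, and the value within slide 2 was -0.71. Pfkm had 5.98, 6.04 and 4.95 in rhTM hearts, against 5.75, 5.70 and 4.04 in saline hearts. The arrays of mouse 3 were the low ones of both groups, which overlapped (0.49 ± 0.54, adjusted p = 0.552, and 1.62 within slide 2). Pfkl differed by -0.15 ± 0.28, with an interval from -0.83 to 0.52.

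The PFKFB enzymes make and remove the sugar bisphosphate that activates phosphofructokinase, and the 2 with the largest changes of the family differed in opposite directions, without passing the test. Pfkfb2, the form typical of the heart, had 2.25, 2.35 and 2.14 in rhTM hearts, against 0.18, 1.41 and -0.20 in saline hearts. The rhTM arrays lay close together and above every saline array by at least 0.73. The change was 1.78 ± 0.41 (3.43-fold, adjusted p = 0.0573), a second probe well above background on all arrays differed by 1.91, and within slide 2 Pfkfb2 passed at 2.44 (adjusted p = 0.0489, blocking on slide). Pfkfb3, a form with strong kinase activity that inflammation and hypoxia can induce, had -0.17, -0.40 and 0.95 in rhTM hearts, against 1.63, 1.90 and 1.76 in saline hearts. Every rhTM array lay below the saline arrays, by at least 0.68, and rhTM 3 was the nearest to them. The change of -1.64 ± 0.37 missed the threshold (3.11-fold lower, adjusted p = 0.0541), with -1.63 within slide 2. Without rhTM 3 it was -2.05 and passed (adjusted p = 0.0196). With normexp background correction Pfkfb3 differed by -1.51 and was called lower (limma, adjusted p = 0.048). Pfkfb1 and Pfkfb4, forms best known from liver or muscle and from testis, differed by -0.13 ± 0.23 and 0.23 ± 0.32.

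**Figure D3:**
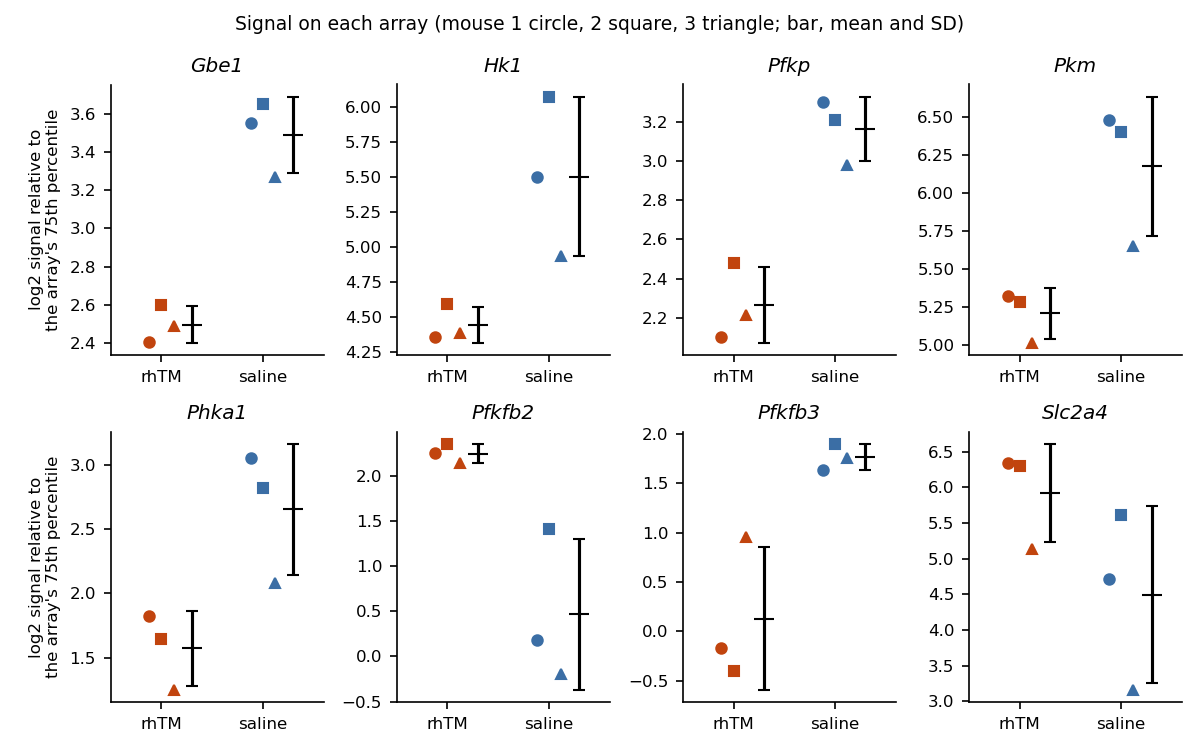
Log2 signal relative to the array's 75th percentile on each array for 8 genes, rhTM (orange) left of saline (blue), with the mean and SD of 3 arrays beside the points; the vertical scale differs between panels. All rhTM points lie below all saline points for Gbe1, Hk1, Pfkp, Pkm, Phka1 and Pfkfb3 and above them for Pfkfb2, and the groups overlap for Slc2a4.

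The promoters of Pfkfb2 and Pfkfb3 are shown because these genes of 1 family differed in opposite directions. Both windows are the 250 bases before the first start that the RefSeq table (GRCm38.p6) lists for the gene, at chr1:130715822-130716071 and at chr2:11553930-11554179, each on the minus strand. The Pfkfb2 window held 4 matches to ACGTG or GCGTG, of which a CACGTG, which reads the same on both strands, counts as 2 overlapping ones, and the Pfkfb3 window held 1. A match is a run of letters and no evidence of binding.

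Pfkfb2: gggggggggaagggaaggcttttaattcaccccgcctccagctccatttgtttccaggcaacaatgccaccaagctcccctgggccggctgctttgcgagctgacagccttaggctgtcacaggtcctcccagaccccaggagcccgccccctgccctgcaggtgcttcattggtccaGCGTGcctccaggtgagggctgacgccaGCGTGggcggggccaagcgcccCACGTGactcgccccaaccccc
Pfkfb3: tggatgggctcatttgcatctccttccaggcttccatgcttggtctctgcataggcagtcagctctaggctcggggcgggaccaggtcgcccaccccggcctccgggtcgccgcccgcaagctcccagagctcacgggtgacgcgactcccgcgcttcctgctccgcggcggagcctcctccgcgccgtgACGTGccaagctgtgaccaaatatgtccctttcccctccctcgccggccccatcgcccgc

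In the lower part of glycolysis, where each sugar is split and yields ATP, 7 of 10 genes had a lower mean with rhTM, against 49.2% of all genes. None was called (limma, 0 of 10), and 3 lay lower and 0 higher at an unadjusted p under 0.05, against 15.6% and 15.1% of all genes. The 3 were Pkm, Pgam1 and Eno1. Pkm, the pyruvate kinase gene of most tissues including heart, had 5.32, 5.28 and 5.01 in rhTM hearts, against 6.48, 6.40 and 5.65 in saline hearts. The groups were apart by 0.32, with saline 3 the lowest saline array, and the change was -0.97 ± 0.27 (1.96-fold lower, adjusted p = 0.0822). A second Pkm probe also differed by -0.97, and the value within slide 2 was -0.44. Without saline 3, Pkm passed at -1.23 (adjusted p = 0.00513).

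Pgam1, the phosphoglycerate mutase of most tissues, had 3.72, 3.92 and 3.95 in rhTM hearts, against 4.23, 4.71 and 4.50 in saline hearts. Eno1, the enolase of most tissues, had 4.81, 4.90 and 4.998 in rhTM hearts, against 5.32, 5.36 and 5.49 in saline hearts. In both the rhTM arrays lay below the saline arrays, by at least 0.28 and 0.32, and the changes were -0.62 ± 0.20 (adjusted p = 0.108) and -0.49 ± 0.17 (adjusted p = 0.120). Within slide 2 they differed by nearly as much, -0.63 and -0.59, and their second probes by -0.75 and -1.20. Pgk1, which makes the first ATP of the pathway, ranged from 7.14 to 7.31 in rhTM hearts and from 7.48 to 7.56 in saline hearts. It was apart by 0.17, though its change of -0.27 ± 0.17 was small (adjusted p = 0.293).

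The muscle forms of the mutase and enolase steps had higher means with rhTM, without passing. Pgam2 had 7.53, 7.52 and 7.10 in rhTM hearts, against 6.87, 7.10 and 6.02 in saline hearts. Eno3 had 7.06, 7.04 and 5.96 in rhTM hearts, against 5.96, 6.81 and 4.57 in saline hearts. Mouse 3 gave the lowest array of each group in both genes, and the groups overlapped. The changes were 0.72 ± 0.32 (adjusted p = 0.184) and 0.91 ± 0.60 (adjusted p = 0.331), and within slide 2 they were 1.36 and 2.11, of which that of Pgam2 passed (adjusted p = 0.0447, blocking on slide) and that of Eno3 did not (adjusted p = 0.0823).

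Of the remaining enzymes of this stretch, Gapdh, which yields NADH and is often taken as a stable reference, ranged from 7.66 to 8.02 in rhTM hearts and from 7.69 to 8.37 in saline hearts (-0.25 ± 0.24). Its 5 other probes differed by -0.74 to -0.09, and by 0.15 to 0.43 within slide 2. Aldoa, the muscle aldolase, differed by -0.22 ± 0.28 and Tpi1, which interconverts the triose phosphates, by 0.07 ± 0.35, with differences of 0.35 and 0.80 within slide 2. Aldoc, the brain aldolase, had -3.20, -2.54 and -1.37 in rhTM hearts, against -2.39, -2.71 and -0.44 in saline hearts. It was highest on the third array of both groups (-0.52 ± 0.71, adjusted p = 0.637).

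Lactate dehydrogenases interconvert pyruvate and lactate. Ldha, the subunit that favours lactate formation, had 7.64, 7.58 and 7.73 in rhTM hearts, against 7.67, 7.61 and 7.45 in saline hearts. The arrays overlapped, and the change of 0.07 ± 0.17 had a 95% interval from -0.34 to 0.48. Its dimmer second probe differed by -0.45 and was the only other member probe above background whose sign opposed the one used, of 23 such probes in 16 genes. Ldhb, the heart-type subunit that favours lactate use, had 7.85, 7.77 and 7.04 in rhTM hearts, against 7.53, 7.39 and 6.23 in saline hearts. It overlapped as well (0.50 ± 0.41, adjusted p = 0.425, and 1.32 within slide 2).

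Monocarboxylate transporters carry lactate across the cell membrane. Slc16a3 encodes MCT4, the lactate exporter of glycolytic cells, and had the largest change of the 37 genes. It had -1.10, -0.83 and 1.53 in rhTM hearts, against 1.40, 2.48 and 2.62 in saline hearts. The rhTM 3 array lay just above saline 1, so the groups overlapped, and the change was -2.30 ± 0.73 (4.91-fold lower, adjusted p = 0.104), with -2.75 within slide 2. Without rhTM 3 it was -3.13 and passed (adjusted p = 0.0295). Slc16a1 encodes MCT1, which the heart uses to take up lactate, and differed by 0.23 ± 0.27 (interval -0.43 to 0.88).

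Most neutrophil markers differed widely between the arrays of a group. Of 9 markers with a probe, 8 had a lower mean with rhTM and 1, Cd177, was called, at least 2.70-fold lower (adjusted p = 0.0212). No rhTM array read Cd177 well above background, so it entered the test through the saline arrays alone. The median change of the 9 markers was -3.44, which is the value of Cd177 itself and so uncertain in size. At an unadjusted p under 0.05, 4 lay lower (limma), namely Retnlg, Mmp9, Cd177 and Ngp, against 15.6% of all genes. Mmp9 and Ngp were well above background on 2 and 1 rhTM arrays, so they too entered the test through the saline arrays. S100a8, a calcium-binding protein that neutrophils hold in abundance, had 1.01, -0.79 and 7.17 in rhTM hearts, against 3.92, 5.26 and 8.42 in saline hearts. The rhTM 3 array lay above saline 1 and 2, so the groups overlapped (-3.40 ± 2.15, adjusted p = 0.310). Retnlg, a secreted resistin-like protein of neutrophils, differed by -4.66 ± 1.93 (adjusted p = 0.160) and passed on blocking by replicate number (adjusted p = 0.0466). The log2 of the summed signal of the list was 6.70, 6.41 and 8.93 in rhTM 1, 2 and 3, against 7.08, 7.76 and 10.02 in saline 1, 2 and 3. On rhTM 1 and 2 this sum was nearly all Csf3r, the receptor of the granulocyte growth factor and the marker with a higher mean with rhTM (0.18 ± 0.18), whose signal there was 6.60 and 6.37. The sum was highest on the third array of each group, as were 8 of the 9 markers. Of the 37 genes, 7 were highest on the third array of both groups (18.9%), against 23.6% of all genes, namely Slc2a1, Hk3, Pfkfb4, Aldoc, Eno1, Slc16a3 and Pygl. Another 19 were lowest there in both groups (51.4%), against 26.9% of all genes. Macrophage and monocyte markers did not share this pattern, with 6 of 10 higher and 4 lower in the group means and 0 called (limma, 2 higher and 0 lower at an unadjusted p under 0.05). Of these Ccr2, a chemokine receptor of monocytes, differed by 2.82 ± 0.63 (adjusted p = 0.0535) and passed on blocking by replicate number (adjusted p = 0.0391). Only 1 saline array read Ccr2 well above background, so it entered the test through the rhTM arrays and the size of its change is uncertain. The part of neutrophils in the changes of Slc16a3, Pfkfb3, Pygl, Hk3 and Slc2a3 was not tested. Pfkfb3 and Slc2a3 were not highest on the third array of both groups.

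Isoenzymes were set side by side in 9 pairs from 7 families, each made of a muscle or heart form and another form. Only the change of 1 probe is set against the change of another, since levels of different probes cannot be compared. In 9 of 9 pairs the change of the muscle or heart form lay above that of the other form, and against saline 3 this held in 8 of 9. The pairs are not independent, since Pfkm and Pygm occur in more than 1 and all share the same 6 arrays, and the direction of several was known from earlier results on these data. The difference of the changes was largest for Slc2a4 over Slc2a1 (2.01, and 4.54 within slide 2) and 1.41 for Hk2 over Hk1. It was 1.40 for Eno3 over Eno1, 1.39 for Pfkm over Pfkp and 1.34 for Pgam2 over Pgam1. It was smallest for Pygm over Pygb (0.31, and -0.05 within slide 2).

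The arrays of the groups were apart in 2 of the 9 pairs. Relative to the saline mean, Pfkm minus Pfkp lay at 1.88, 1.57 and 0.73 in rhTM hearts, against 0.45, 0.49 and -0.94 in saline hearts. Pgam2 minus Pgam1 lay at 1.63, 1.42 and 0.96 in rhTM hearts, against 0.45, 0.21 and -0.66 in saline hearts. In both pairs mouse 3 was the lowest of its group. In the other 7 pairs the arrays overlapped.

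**Figure D4:**
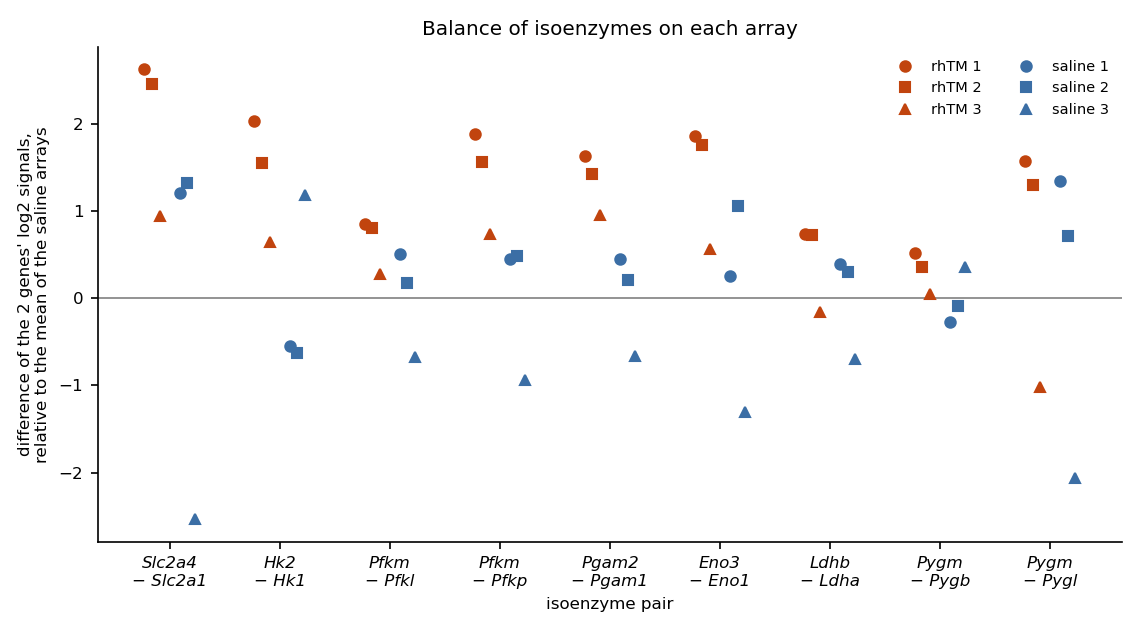
Difference between the log2 signals of 2 isoenzyme genes on each array, relative to the mean of the saline arrays, rhTM (orange) left of saline (blue). Points of rhTM lie above all saline points for Pfkm minus Pfkp and Pgam2 minus Pgam1, and the triangles of saline 3 are the lowest points in 7 of the 9 pairs.

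Cardiomyocyte markers had mostly higher means with rhTM. Of 10 such markers 9 had a higher mean with rhTM, against 50.8% of all genes. In 5 all rhTM arrays lay above all saline arrays, against 17.0% of all genes. At an unadjusted p under 0.05, 4 lay higher (limma), against 15.1%. The 1 called higher, against 2.75% of all genes, was Pln, the inhibitor of the calcium pump (1.35 ± 0.28, adjusted p = 0.0478). The Pln call was lost under quantile normalisation (adjusted p = 0.0962) and with no filter on dim probes (adjusted p = 0.0982). Blocked on slide, Mybpc3, a myosin-binding protein of the sarcomere, also passed (2.13, adjusted p = 0.0433). The log2 of their summed signal was 12.06, 12.08 and 11.61 in rhTM hearts, against 11.38, 11.59 and 10.999 in saline hearts, lowest on the third array of each group. All 10 were well above background on all 6 arrays. Of 10 markers of skeletal muscle, which uses Pgam2, Eno3, Pygm and Phkg1 heavily, Myh1 and Actn3 exceeded background on no array. Of the 7 that were tested, 5 had a higher mean with rhTM and 2 a lower one. At an unadjusted p under 0.05, 3 lay higher and 0 lower (limma), against 15.1% and 15.6% of all genes. The 3 were Myh4, Tnnc2 and Mylpf. In these 3 of the 7 tested all rhTM arrays lay above all saline arrays, as in 17.0% of all genes. The log2 of the summed signal was 2.32, 2.29 and 1.89 in rhTM hearts against 2.85, 3.35 and 1.51 in saline hearts. On saline 1 and 2 this sum was mostly Atp2a1, which differed by -0.83 ± 0.70 (adjusted p = 0.438). Of the 7 tested markers Myh4 was called, at least 2.89-fold higher with rhTM (limma, adjusted p = 0.0218). No saline array read Myh4 well above background, so it entered the test through the rhTM arrays alone. With normexp Myh4 differed by 0.59 and did not pass (adjusted p = 0.331). The part of the cardiomyocyte share of RNA in the isoenzyme pairs was not tested.

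The endothelial, fibroblast, erythroid and adipocyte lists held 0 calls (limma, 3 lower and 1 higher at an unadjusted p under 0.05). Blocked on replicate number, Lum, a proteoglycan of the matrix, passed (1.22, adjusted p = 0.0431). Blocked on slide, the matrix protein gene Dpt passed at 1.47 (adjusted p = 0.0262) and Retn at -1.65 (adjusted p = 0.0494). The log2 summed signal of endothelial markers was 6.73, 6.61 and 6.71 in rhTM hearts, against 6.93, 6.85 and 7.0 in saline hearts. These sums were apart and lower with rhTM. They were mostly Egfl7, whose own arrays overlapped (-0.27 ± 0.19, adjusted p = 0.373). Of the 10 markers, 8 had a lower mean and 2 a higher one, and 2 (20%) lay apart, against 35.7% of all genes. Fibroblast markers summed to 8.18, 8.35 and 8.47 in rhTM hearts, against 8.08, 8.28 and 8.02 in saline hearts, and macrophage and monocyte markers to 4.83, 5.42 and 5.44, against 4.59, 5.39 and 4.93. Both overlapped between groups. Erythroid markers, Epb42 among them exceeding background nowhere, summed to 8.48, 8.47 and 6.88 in rhTM hearts, against 7.42, 8.41 and 8.72 in saline hearts. Adipocyte markers summed to 7.38, 6.96 and 7.31 in rhTM hearts, against 7.61, 6.33 and 7.75 in saline hearts. Among them Adipoq and Plin1 exceeded background nowhere. Retn did so on only 1 rhTM array and on all 3 saline arrays, so the size of its change is uncertain. The erythroid and adipocyte sums overlapped between groups as well. The adipocyte sum was nearly all Fabp4, at 7.35, 6.92 and 7.28 in rhTM hearts and 7.58, 6.28 and 7.73 in saline hearts. It therefore stands for that gene and not for the list.

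**Figure D5:**
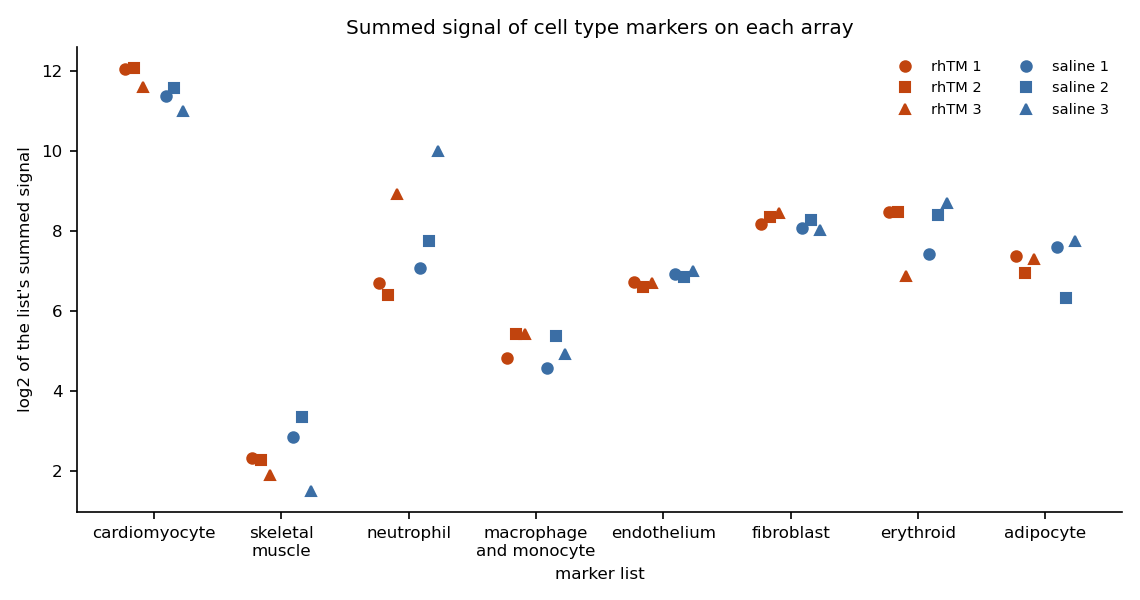
Log2 of the summed signal of each marker list on each array, rhTM (orange) left of saline (blue), with mouse 1 as a circle, 2 as a square and 3 as a triangle. Neutrophil markers are highest on the third array of each group, and the cardiomyocyte points of saline 3 are the lowest of that list.

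The promoters of the mutase and enolase pairs are shown because the 2 forms of each step differed in direction. The windows are the 250 bases before the first listed start in the RefSeq table (GRCm38.p6), at chr19:41911621-41911870 (plus) for Pgam1, chr11:5803797-5804046 (minus) for Pgam2, chr4:150236458-150236707 (plus) for Eno1 and chr11:70656926-70657175 (plus) for Eno3. Pgam1 held 3 matches to ACGTG or GCGTG and Pgam2 held 0, while Eno1, for which the table lists 3 starts, and Eno3 held 1 each. Over the 35 members in the table, 25 of the first-listed windows held a match (71.4%), against 38.6% of all 27025 genes' windows. CACGTG was in 4 of the 35 (11.4%), against 6.05%. The members' windows were also richer in G and C, with a median of 59.2%, against 52.0% over all, and neither share was tested. Eno1, with a lower mean with rhTM, and Eno3, with a higher one, did not differ in the count of matches.

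Pgam1: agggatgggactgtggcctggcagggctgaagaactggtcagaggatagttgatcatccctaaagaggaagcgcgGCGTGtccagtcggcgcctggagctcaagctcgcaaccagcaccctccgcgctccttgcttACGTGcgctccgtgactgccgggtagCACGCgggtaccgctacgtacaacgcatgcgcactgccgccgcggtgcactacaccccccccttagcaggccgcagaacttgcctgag
Pgam2: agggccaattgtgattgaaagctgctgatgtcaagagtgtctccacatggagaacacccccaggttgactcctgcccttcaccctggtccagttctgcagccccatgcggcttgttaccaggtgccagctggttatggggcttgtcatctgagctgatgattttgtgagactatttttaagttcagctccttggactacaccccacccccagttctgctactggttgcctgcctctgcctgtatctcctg
Eno1: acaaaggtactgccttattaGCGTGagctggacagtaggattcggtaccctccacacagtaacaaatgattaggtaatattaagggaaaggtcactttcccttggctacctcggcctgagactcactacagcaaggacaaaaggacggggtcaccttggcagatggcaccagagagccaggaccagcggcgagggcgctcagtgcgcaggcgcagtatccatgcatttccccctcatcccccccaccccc
Eno3: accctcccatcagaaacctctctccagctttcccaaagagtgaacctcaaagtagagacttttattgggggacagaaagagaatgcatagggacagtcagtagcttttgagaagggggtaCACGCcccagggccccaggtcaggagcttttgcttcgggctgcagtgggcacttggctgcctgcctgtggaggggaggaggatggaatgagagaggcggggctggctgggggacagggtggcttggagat

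Beside the 37 genes stood lists of other genes of the pathway. Of 15 genes of gluconeogenesis and the pentose phosphate pathway, the branch that makes NADPH and ribose, 13 were tested. Of these 10 had a lower mean with rhTM and 4 were called lower (2.41% of all genes were), with a median change of -0.68, against 0.01 over all genes, and 0 were called higher. Of 9 neutrophil markers, 8 also had a lower mean with rhTM, of which Cd177, Ngp and Mmp9 entered the test through the saline arrays. Of the 13 genes, 3 were highest on the third array of both groups, among them H6pd and Taldo1, against 23.6% of all genes. G6pdx, Pgd and Pcx were not among these 3. The part of neutrophils in the changes of this list was not tested. The 4 genes called lower were G6pdx, H6pd, Pgd and Pcx. G6pdx, the dehydrogenase that opens the branch, had -0.24, -0.01 and 0.71 in rhTM hearts, against 1.77, 1.94 and 1.73 in saline hearts. All rhTM arrays lay below the saline arrays, and G6pdx fell by 1.66 ± 0.28 (3.17-fold lower, adjusted p = 0.0352). H6pd, its counterpart in the endoplasmic reticulum, had 0.58, 0.43 and 1.12 in rhTM hearts, against 2.18, 1.77 and 2.48 in saline hearts (-1.43 ± 0.28, adjusted p = 0.0441). Pgd, the next dehydrogenase, changed by -1.21 ± 0.25 (adjusted p = 0.0457) and Pcx, the mitochondrial carboxylase of pyruvate, by -1.30 ± 0.26 (adjusted p = 0.0457). Within slide 2 the 4 differed by -1.77 to -0.94, and on blocking by slide H6pd alone passed (adjusted p = 0.0479, the others 0.0726 to 0.103). G6pdx and H6pd also passed on blocking by replicate number (adjusted p of 0.0489 and 0.0391), while Pgd and Pcx did not (0.0672 and 0.0554). Without any 1 of rhTM 1, rhTM 2, saline 1 and saline 2, none of the 4 passed (adjusted p 0.0768 to 0.216), and Pcx did not pass without rhTM 3 either (adjusted p = 0.0648). With no filter on dim probes none of the 4 passed (adjusted p 0.0734 to 0.0982). H6pd was also lost with arrays centred on their median (adjusted p = 0.0509). Pgd was lost in that setting (adjusted p = 0.0513), under quantile normalisation (adjusted p = 0.0509) and with normexp (adjusted p = 0.0580), where Pcx was lost too (adjusted p = 0.0603).

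The other lists held few calls. Of 19 genes of insulin signalling to glucose uptake, 14 had a lower mean and 1 was called, Pik3ca, a catalytic subunit of phosphoinositide kinase. Its single probe lay at 7.21, 7.15 and 6.61 in rhTM hearts, against 2.68, 2.35 and 4.14 in saline hearts (3.93 ± 0.48, adjusted p = 0.0212, and 2.85 within slide 2). Saline 3 lay between saline 1 and 2 and the rhTM arrays, and without rhTM 1, rhTM 2, saline 1 or saline 2 the gene no longer passed (adjusted p 0.0506 to 0.137). Of 20 genes of the hypoxia-inducible factors and their targets outside glycolysis, 10 lay higher, 10 lower and 0 were called (limma, 4 in each direction at an unadjusted p under 0.05). The lowest p of that list was that of the mitochondrial protein gene Higd1a (0.96 ± 0.25, adjusted p = 0.0710). Among 13 tested further transporters and isoenzymes of glycolysis 0 were called (2 higher and 1 lower at an unadjusted p under 0.05). Among 17 tested further glycogen enzymes and regulators 0 were called (3 in each direction at an unadjusted p under 0.05). Epm2a, the glycogen phosphatase laforin, was at least 1.75-fold higher with rhTM without passing (adjusted p = 0.0893), since no saline array read its probe well above background. A second Epm2a probe, well above background on 2 rhTM and 2 saline arrays, differed by 0.25, and with normexp Epm2a differed by 0.13, so the bound is one of a single probe and setting.

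Some further genes of these lists passed in a blocked fit and are named after their values were seen. On blocking by replicate number Slc2a12, a glucose transporter of heart and muscle, passed (1.85 ± 0.61 and adjusted p = 0.109 without the block, adjusted p = 0.0477 with it). Blocked on slide, where saline 3 alone stands for saline, Slc2a12 passed at 3.20 (adjusted p = 0.0288). So did Slc2a8, another transporter, at 0.91 (adjusted p = 0.0494). Ppp1r3c, which targets a phosphatase to glycogen, passed there at 3.40 (adjusted p = 0.0316). Irs2, an adaptor of the insulin receptor, passed at -1.33 (adjusted p = 0.0309), and Hif1a, the oxygen-regulated subunit of the hypoxia-inducible factor, at -2.06 (adjusted p = 0.0210).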

How the data were processed

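Cy3-labelled cRNA of whole hearts was read on 1-colour Agilent arrays, 3 rhTM and 3 saline mice, grouped from the sample titles. The authors deposited spot intensity values, background-corrected but without normalisation between arrays. Per the file headers they come from Agilent Feature Extraction 10.7.3.1, whereas version 9.1 is named by the submitters' processing notes. The authors' deposited log2 values, in a table of the series, had no stated scale or centring, and their baseline per probe differed between slides (SD 0.825 over 56237 probes, against at most 1.89e-05 within a slide). The column medians were -0.08, 0.03 and 0.09 for rhTM 1 to 3 and -0.02, -0.16 and 0.10 for saline 1 to 3, and they served only as an alternative.

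For each array, 57.1% to 62.8% (rhTM) and 54.8% to 58.9% (saline) of 59305 spots exceeded background by the scanner software's own call, with 0 saturated. Processed signals were put on the log2 scale and the 75th percentile of each array was subtracted. Spots of 1 probe were averaged, 368 of 56605 probes with outlier flags were dropped, and 32789 probes were named by transcript accession in a RefSeq table (GRCm38.p6) while 23448 were not. The probe with the highest mean signal stood for a gene, and genes well above background on all 3 arrays of a group were tested with limma 3.58.1 in R 4.3.3, with Benjamini-Hochberg adjustment. Bounds ("at least") set the brighter group's mean against the higher of the dim probe's own signal and the lowest signal well above background per array. The scripts were tested on simulated data. The normexp alternative used the median spot signal, since the files used here give no mean.

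All 37 members are named. Other pathway genes are named where called, at most 4 a list by p, otherwise by the lowest p, and some genes that this rule would name are not reported here. Members, lists and the isoenzyme pairs were chosen with earlier results of these data known. Same-numbered arrays deviated together across genes at 0.319, 0.235 and 0.372, but rhTM 2 and saline 1 did so too (0.314), and the labels name no shared litter or day, though the number occurs in both groups. Since each of the 3 same-number correlations exceeded 0.1, fits blocked on replicate number are given beside each call that they change.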

Additional observations from a re-analysis of the deposited data

How the results depend on the processing

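The 1 lower and 0 higher calls among the 37 genes came to 0 lower with no filter on dim probes, where all genes gave 132 higher and 19 lower, against 405 and 355. With normexp all genes gave 200 and 212, and the 1 member called lower was Pfkfb3 (adjusted p = 0.048) and not Gbe1 (adjusted p = 0.0545). Blocking on slide, members gave 3 higher (Pfkfb2, Pgam2 and Phkg1) and 0 lower, and in the replicate block 0 lower. That block changed no call of another member. With array weights members gave 7 higher and 13 lower, and all genes 4663 and 4581. With the deposited table members gave 9 higher and 10 lower, all genes gave 2205 and 2314, and Pygm turned to 1.13 from a negative change. That table's baseline differs between slides. Leaving out 1 array gave 0 to 1 higher and 0 to 9 lower members and, over all genes, 0 to 3007 higher and 0 to 2808 lower. The extremes were without rhTM 1 (limma, 0 and 0) and without saline 3 (3007 and 2808). Leaving out saline 3 and rhTM 3, chosen after seeing the data, gave 4 higher and 12 lower members and 3948 and 3873 of all genes, or 26.9% and 26.3%. The members' median change of -0.22 ranged from -0.38 (quantile normalisation) to 0.08 (deposited table). Its sign turned there and on blocking by slide (0.03). These moves were smaller than the SD of the members' medians on the saline arrays alone (0.470), where saline 3 lay lowest. Gbe1 was called under 8 of 17 alternatives (adjusted p 0.000407 to 0.205) and lay between -1.11 and -0.77 in all of them. With arrays centred on their median instead, calls over all genes split into 483 higher and 268 lower, against 405 and 355. The causes were not tested.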
